A study of Mus musculus with 16 samples.

Results

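Mouse hearts, 16 in all, were sorted by their level of Arntl, the gene of the clock activator BMAL1, into 6 high-Arntl hearts, 5 low-Arntl hearts and 5 hearts between. The classes were chosen by measured values: the mean of its own design group was subtracted from each log2 value, and a heart was called high where the remaining Arntl deviation was above 0.15 and low where it was below -0.15. Thus 11 of 16 hearts belonged to the 2 classes compared, and the 5 hearts between stayed in the fit as a class of their own. The high-Arntl hearts were cKO TAC replicate 1, cKO sham replicate 4, control TAC replicates 1 and 4, and control sham replicates 3 and 4. The low-Arntl hearts were cKO TAC replicate 4, cKO sham replicates 2 and 3, control TAC replicate 2 and control sham replicate 2, and values of low-Arntl hearts are given below in that order. The series set a conditional knockout of Zbtb17 (cKO) against control mice, each after transverse aortic constriction (TAC), a surgical pressure load on the left ventricle, or after a sham operation. Each of the 4 groups held 4 male mice of the C57BL/6 background, operated at 8 to 10 weeks of age and sampled 4 weeks later, with 1 Affymetrix Mouse Gene 1.0 ST array per mouse. The Cre driver of the knockout, the genotype of the controls beyond that name, and the hour at which each heart was taken are not given in the labels, and neither is a batch.

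The circadian clock of mammalian cells is a feedback loop of transcription. BMAL1 pairs with CLOCK and switches on genes that carry E-box sequences, among them the Period and Cryptochrome repressors, the nuclear receptors of the Rev-erb pair (Nr1d1, Nr1d2) and the PAR bZIP factors (Dbp, Tef, Hlf). The products of Per and Cry shut BMAL1 and CLOCK down, and the Rev-erb receptors repress Arntl itself, so that in mouse tissues, the heart included, Arntl messenger peaks in a different part of the day from Dbp, Nr1d1, Nr1d2 and the Per genes.

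Sequences of 4 clock promoters are shown because they carry the letters through which the loop is known to act, and because their genes had low levels in high-Arntl hearts. Each is the RefSeq window of 250 bases before to 50 bases after a transcription start (build GRCm38.p6), written 5′ to 3′ on the strand of the gene. Capitals mark the letters searched on both strands: the E-box CACGTG bound by BMAL1 with CLOCK, the D-box TTATGTAA or TTACGTAA bound by the PAR bZIP factors, and AGGTCA, the half-site read by Rev-erb and ROR receptors. No match overlapped another in these windows. The windows are chr4:151044616-151044915 (minus strand) for Per3, chr3:95882179-95882478 (minus strand) for Ciart, chr15:81802423-81802722 (plus strand) for Tef and chr14:18239057-18239356 (minus strand) for Nr1d2.
Per3: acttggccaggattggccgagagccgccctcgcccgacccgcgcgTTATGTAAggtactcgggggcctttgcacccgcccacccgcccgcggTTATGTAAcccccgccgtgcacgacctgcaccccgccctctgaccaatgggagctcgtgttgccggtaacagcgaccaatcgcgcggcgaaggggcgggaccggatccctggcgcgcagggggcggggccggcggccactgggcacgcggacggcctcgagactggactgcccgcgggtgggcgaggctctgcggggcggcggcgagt
Ciart: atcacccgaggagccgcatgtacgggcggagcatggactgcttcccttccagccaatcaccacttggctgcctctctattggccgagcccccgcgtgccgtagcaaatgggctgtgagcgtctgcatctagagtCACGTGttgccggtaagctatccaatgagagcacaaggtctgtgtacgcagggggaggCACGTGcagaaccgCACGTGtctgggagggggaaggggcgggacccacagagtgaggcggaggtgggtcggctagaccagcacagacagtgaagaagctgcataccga
Tef: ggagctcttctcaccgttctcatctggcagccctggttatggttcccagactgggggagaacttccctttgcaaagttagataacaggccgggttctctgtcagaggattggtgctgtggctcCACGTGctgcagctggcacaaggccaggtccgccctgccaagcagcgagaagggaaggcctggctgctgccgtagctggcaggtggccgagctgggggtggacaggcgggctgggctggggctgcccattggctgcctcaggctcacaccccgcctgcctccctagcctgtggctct
Nr1d2: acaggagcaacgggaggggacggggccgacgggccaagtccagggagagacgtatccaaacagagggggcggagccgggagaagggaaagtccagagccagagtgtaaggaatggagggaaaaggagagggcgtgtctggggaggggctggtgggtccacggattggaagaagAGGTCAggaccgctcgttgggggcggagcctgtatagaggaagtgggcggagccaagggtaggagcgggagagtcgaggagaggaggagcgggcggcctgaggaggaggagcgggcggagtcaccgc

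Per3 held 2 D-boxes, starting 205 and 158 bases upstream. Ciart held 3 E-boxes, at 116, 58 and 44 bases upstream. Tef held an E-box 127 bases upstream, and a second annotated Tef promoter held another 138 bases upstream. The Nr1d2 window held AGGTCA 77 bases upstream. For 16 of the 18 clock genes described below, Arntl aside, the RefSeq table held 21 promoters. Of these promoters 6 held the E-box, 1 the D-box and 4 the half-site, against 7.15%, 1.06% and 16.3% of all 32851 promoters in the table. Neither the Dbp nor the Hlf window held any of these letters. A match describes the letters in a window and is not evidence of binding.

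Arntl was read by a single probe set. In high-Arntl hearts its deviations were 0.38, 0.45, 0.61, 0.62, 0.16 and 0.27, against -0.41, -0.36, -0.20, -1.19 and -0.58 in low-Arntl hearts. The members nearest the thresholds were control sham replicate 3 at 0.16 and cKO sham replicate 3 at -0.20, and the nearest hearts outside were control sham replicate 1 at 0.14 and cKO TAC replicate 3 at -0.053. Mean deviations were 0.42 in high-Arntl and -0.55 in low-Arntl hearts. These values chose the classes and were given no test. The gap between classes was wider in control than in cKO hearts: it came to 0.74 in cKO and 1.30 in control hearts, and to 1.34 after TAC and 0.67 after sham. Control TAC replicate 2 had the lowest Arntl deviation of the 16 hearts.

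**Figure D1:**
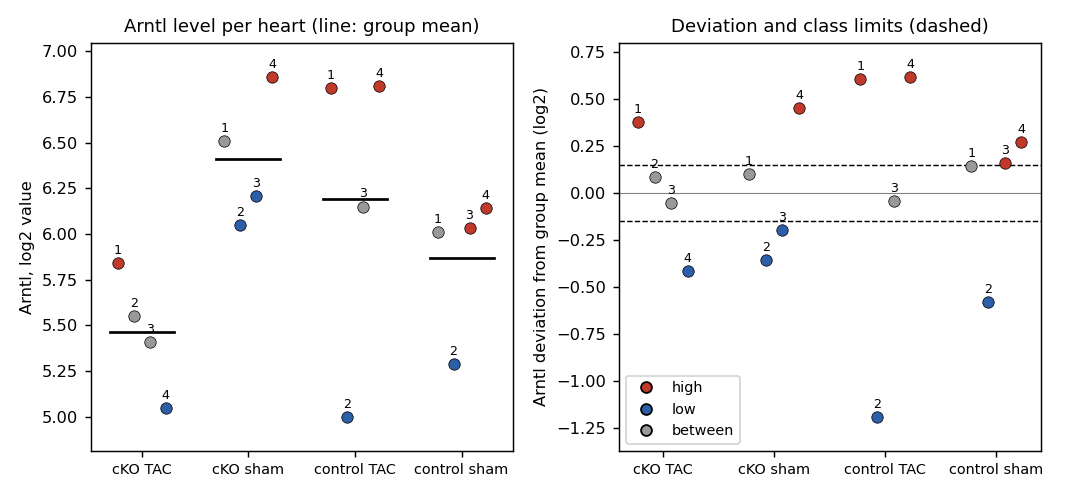
Arntl level (log2) and its deviation from the design group mean for each of the 16 hearts, by design group, coloured by class. Numbers are replicates, solid lines are group means and dashed lines mark 0.15 and -0.15, and every group holds at least 1 high-Arntl and 1 low-Arntl heart.

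Levels before the group means were removed differed between groups. Arntl averaged 5.46 ± 0.33 in cKO TAC, 6.41 ± 0.36 in cKO sham, 6.19 ± 0.85 in control TAC and 5.87 ± 0.39 in control sham hearts (log2, SD, n = 4 each). Dbp, a PAR bZIP activator and a textbook direct target of BMAL1 and CLOCK, averaged 8.53 ± 0.093, 7.79 ± 0.55, 7.96 ± 0.78 and 8.50 ± 0.36 in the same groups. The group with the lowest mean Arntl, cKO TAC, had the highest mean Dbp, and the group with the highest mean Arntl, cKO sham, had the lowest mean Dbp. Per3, a Period family gene, averaged 6.93 in cKO TAC, 6.06 in cKO sham, 6.38 in control TAC and 6.64 in control sham hearts, in that same inverse order. These 4 means do not enter the class contrast, and they are given as a description without a test.

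The quartiles of the 16 arrays nearly coincided, and each pair of arrays differed in at least 97.4% of probe sets. Zbtb17, the knocked-out gene, read 6.47 to 6.62 in cKO hearts and 6.19 to 6.56 in control hearts, so its probe set was no lower in hearts labelled cKO, and the deleted part of the gene is not given in the labels. Groups are named as labelled. Some arrays stood apart: Myl7, an atrial myosin light chain, was above 6 on 3 of 6 high-Arntl, 2 of 5 low-Arntl and 1 of 5 other arrays. Atf3, a stress-induced transcription factor, was above 8 on 2 of 6 high-Arntl arrays (10.18 and 8.45, control sham replicates 3 and 4), on 0 of 5 low-Arntl arrays and on 1 of 5 other arrays (9.58, cKO sham replicate 1). In RNA of heart tissue, fewer cells of a type and less RNA per cell cannot be told apart.

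Across 21332 probe sets, high-Arntl against low-Arntl hearts gave 0 calls at an adjusted p under 0.05, higher or lower (0% and 0% of those tested; limma with group terms, smallest adjusted p 0.875). At an unadjusted p under 0.05 there were 1095, of which 547 (2.56%) were higher and 548 (2.57%) lower. The deviations of the classes did not overlap for 67 probe sets higher (0.314%) and 85 lower (0.398%). In a second limma fit, which replaced the classes by the Arntl deviation of all 16 hearts, 4 probe sets fell as Arntl rose (0.0188%) and 0 rose with it (0%), and at an unadjusted p under 0.05 there were 747 (3.50%) with a positive and 679 (3.18%) with a negative slope. The 4 were Dbp, Tef, Nr1d2 and Hlf, all clock genes, each with an adjusted p of 0.0327. Their slopes per log2 unit of Arntl were -0.87 ± 0.12, -0.45 ± 0.065, -0.45 ± 0.066 and -0.40 ± 0.058 (SE, 16 hearts). The calls were near the threshold: of 16 fits that each left out 1 heart, 13 called no probe set lower, and only those without cKO TAC replicate 1, 2 or 4 kept any, namely 1, 3 and 4. Across the 16 fits the smallest adjusted p lay between 0.0028 and 0.632. The highest was without control TAC replicate 2, where the slopes of Dbp, Tef, Nr1d2 and Hlf were -0.86, -0.35, -0.44 and -0.45.

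Besides Arntl, 18 clock genes in the 4 lists of core members had a probe set with 1 symbol, and all 18 passed the filter on low values. Npas2, which can replace CLOCK, had no such probe set. In the class contrast 15 of the 18 had a negative difference and 3 a positive one, with a median log2 difference of -0.36, beside a median of 0.00045 and 49.8% negative over all probe sets tested. At an unadjusted p under 0.05 there were 7 lower and 1 higher, beside 2.57% and 2.56% of all probe sets, and none passed after adjustment. The deviations of the classes did not overlap for Per3, Nr1d2, Tef and Hlf, which were below in high-Arntl hearts, and for Clock, which was above. Without control TAC replicate 2 the counts were 14 negative and 4 positive with a median of -0.19, without the 6 arrays with Myl7 above 6 they were 14 and 4 with a median of -0.13, and without the 3 arrays with Atf3 above 8 they were 16 and 2 with a median of -0.41.

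**Figure D2:**
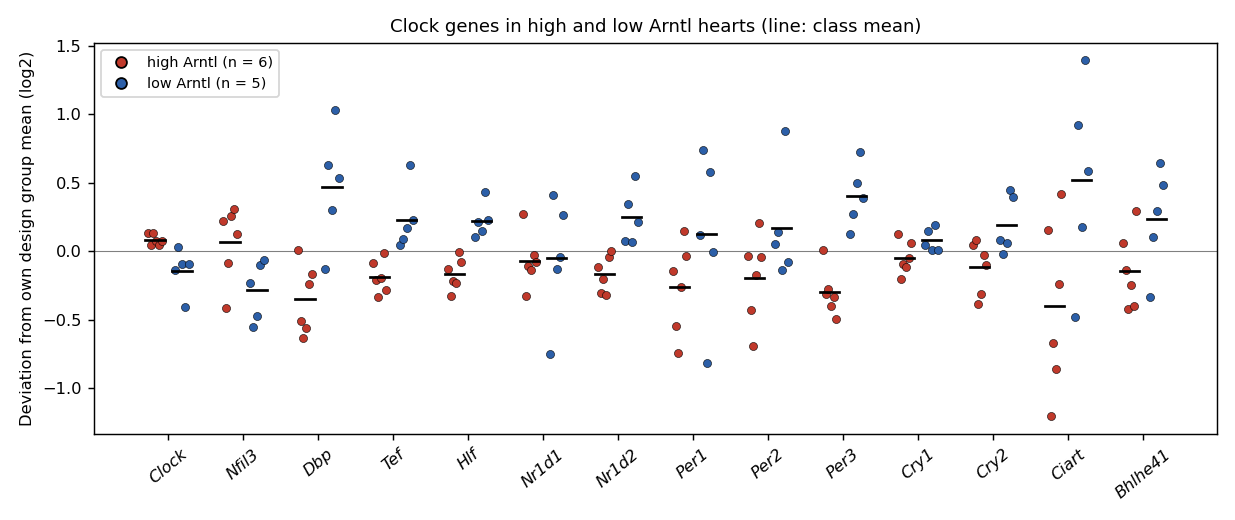
Deviation from the design group mean (log2) of 14 clock genes in high-Arntl (left of each pair) and low-Arntl hearts (right). Points are hearts and lines are class means. Per3, Nr1d2, Tef and Hlf lie lower in high-Arntl hearts with no overlap, and Clock lies higher.

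Among the activators, Clock, the DNA-binding partner of BMAL1, had a positive difference. Its deviations in high-Arntl hearts lay between 0.045 and 0.13 with a median of 0.074, against -0.14, 0.028, -0.092, -0.41 and -0.095 in low-Arntl hearts. Every high-Arntl heart was above every low-Arntl heart, though cKO sham replicate 2 at 0.028 came close. The difference was 0.24 ± 0.079 (log2, high minus low, ± SE, adjusted p 0.875 by limma), and 0.14 without control TAC replicate 2. Arntl2, a paralogue of Arntl, had a difference of -0.11 ± 0.11, and its classes overlapped. Its differences within genotypes had opposite signs, -0.37 ± 0.14 in cKO and 0.10 ± 0.13 in control hearts. Arntl2 read only 4.3 to 5 (log2), near the array medians of 4.85 to 4.98.

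Of the 8 repressors, 7 had negative differences, with a median of -0.40. Per3, a Period family member, had deviations between -0.50 and 0.0075 in high-Arntl hearts with a median of -0.32, against 0.13, 0.27, 0.50, 0.72 and 0.39 in low-Arntl hearts. The classes did not overlap, and cKO TAC replicate 1 at 0.0075 was the only high-Arntl heart above 0. The difference was -0.75 ± 0.15, and within cKO TAC, cKO sham, control TAC and control sham it was -0.12, -0.70, -1.06 and -0.81. Per3 is the gene whose promoter above carries a pair of D-boxes.

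Ciart, a small repressor of BMAL1 and CLOCK whose promoter above holds 3 E-boxes, had the widest gap of the list and the widest spread. Deviations in high-Arntl hearts lay between -1.20 and 0.42 with a median of -0.46, against -0.48, 0.92, 0.18, 1.40 and 0.59 in low-Arntl hearts. The classes overlapped. The highest high-Arntl value was 0.42, in control sham replicate 4, and within cKO TAC the values ran the other way, 0.16 in the high-Arntl and -0.48 in the low-Arntl heart. The difference was -0.98 ± 0.37, and -0.66 without control TAC replicate 2.

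Per1 and Per2, the Period genes that answer light and hormones as well as the clock, had differences of -0.42 ± 0.27 and -0.39 ± 0.20 with overlapping classes. Per2 deviations were 0.055, 0.14, -0.14, 0.88 and -0.082 in low-Arntl hearts, and the value of control TAC replicate 2 stood far above the others. Without that heart the Per2 difference was -0.11. Of the Cryptochromes, which join the Period proteins in the repressor complex, Cry2 had a difference of -0.33 ± 0.14 and Cry1 one of -0.14 ± 0.079. The Cry2 difference was 0.015 ± 0.17 in cKO and -0.63 ± 0.16 in control hearts, and the interaction did not pass after adjustment. The paralogous E-box repressors split: Bhlhe41 had -0.41 ± 0.19 and Bhlhe40 had 0.092 ± 0.14, and the sign of Bhlhe40 turned without control sham replicate 4 (-0.018) and without the 3 arrays with Atf3 above 8 (-0.044).

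In the nuclear receptor loop all 4 measured genes had negative differences, and they ranged widely in size. Nr1d2, the Rev-erb receptor with the half-site in the promoter shown above, had deviations between -0.32 and 0 in high-Arntl hearts with a median of -0.16, against 0.072, 0.35, 0.068, 0.55 and 0.21 in low-Arntl hearts. No high-Arntl heart was above 0 and no low-Arntl heart was below it. The difference was -0.44 ± 0.11, and within cKO TAC, cKO sham, control TAC and control sham it was -0.19, -0.51, -0.81 and -0.23. Nr1d1, the other Rev-erb gene, had -0.023 ± 0.19 and a sign that turned in some alternative fits, for example to 0.11 without control sham replicate 2. Of the 11 hearts, low-Arntl ones held both its lowest value, -0.75 in cKO TAC replicate 4, and its highest, 0.41 in cKO sham replicate 2. Rora and Rorb, activators of Arntl, had differences of -0.14 ± 0.094 and -0.095 ± 0.14. Rorb turned to 0.022 without the 6 arrays with Myl7 above 6 and to 0.0099 without control TAC replicate 2. Like Arntl2, Rorb read near the array medians, at 4.48 to 5.24 (log2).

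The 3 PAR bZIP factors, activators that bind D-boxes, all had negative differences. Dbp deviations lay between -0.64 and 0.0075 in high-Arntl hearts with a median of -0.37, against -0.13, 0.63, 0.30, 1.04 and 0.53 in low-Arntl hearts. 4 of the low-Arntl hearts were above every high-Arntl heart, and cKO TAC replicate 4 was the exception. The Dbp difference was -0.88 ± 0.19, a level in high-Arntl hearts 0.544 times that in low-Arntl hearts. The 5 hearts between, in the order cKO TAC replicates 2 and 3, cKO sham replicate 1, control TAC replicate 3 and control sham replicate 1, had Dbp deviations of 0.048, 0.078, -0.42, 0.16 and -0.13.

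Tef lay between -0.34 and -0.012 in high-Arntl hearts with a median of -0.20, against 0.042, 0.088, 0.17, 0.63 and 0.23 in low-Arntl hearts. All 6 high-Arntl hearts were below 0 and all 5 low-Arntl hearts above it. The difference was -0.45 ± 0.10 (-0.30 without control TAC replicate 2), and it was negative in each design group: -0.13, -0.34, -0.90 and -0.38 in cKO TAC, cKO sham, control TAC and control sham hearts. Hlf lay between -0.33 and -0.0025 in high-Arntl hearts with a median of -0.17, against 0.10, 0.21, 0.15, 0.43 and 0.23 in low-Arntl hearts. Again the sign of the deviation separated the classes, with a difference of -0.41 ± 0.085 and within-group values of -0.23, -0.51, -0.66 and -0.27. Nfil3, the D-box repressor that opposes these factors, had a positive difference of 0.37 ± 0.28. Its deviations lay between -0.42 and 0.30 in high-Arntl hearts with a median of 0.17, against -0.23, -0.56, -0.48, -0.10 and -0.065 in low-Arntl hearts, and the high-Arntl hearts cKO sham replicate 4 and control TAC replicate 1 lay within the low-Arntl range. The cKO sham mean was raised by a heart between, cKO sham replicate 1, which read 7.83 (log2, deviation 1.445). The other cKO sham hearts read 5.83, 5.91 and 5.97, so their deviations of -0.56, -0.48 and -0.42 followed from that heart.

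**Figure D3:**
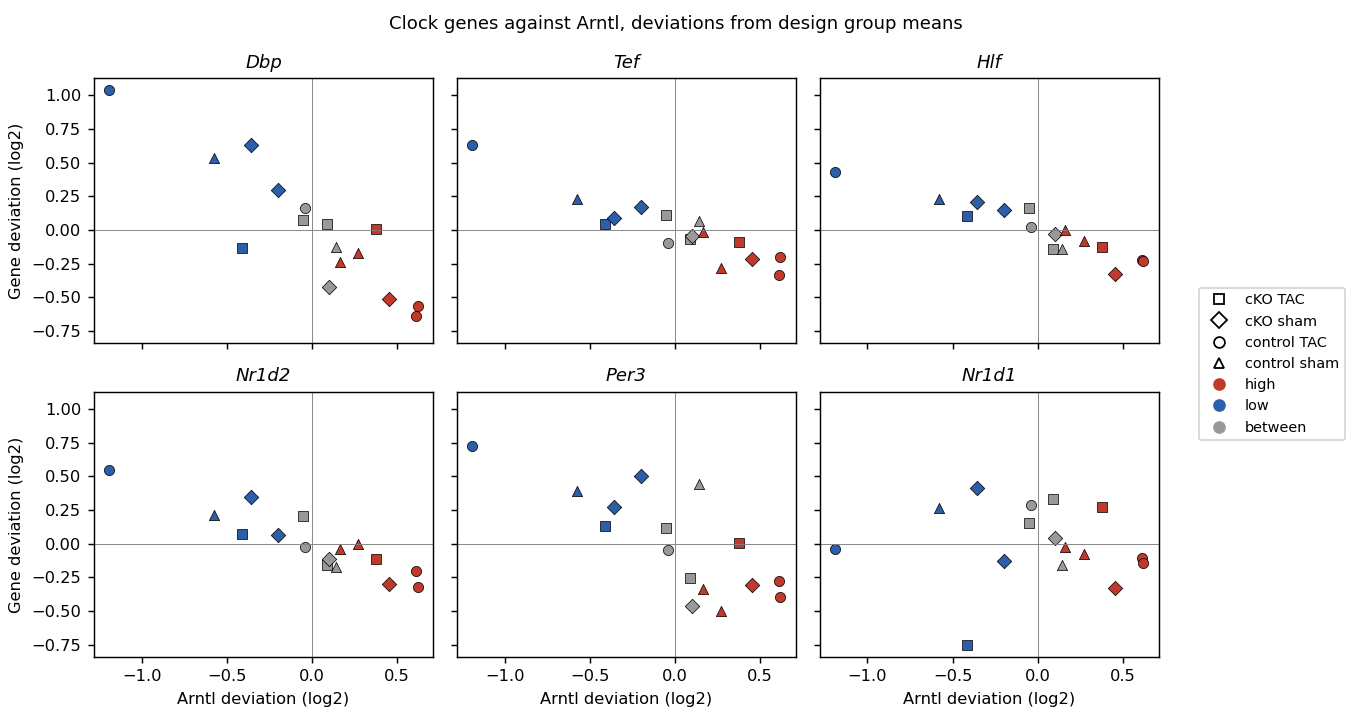
Deviation of single clock genes against the Arntl deviation (both log2) for the 16 hearts, coloured by class, with the shape giving the design group. Dbp, Tef, Hlf and Nr1d2 fall as Arntl rises, with control TAC replicate 2 at the far left of each panel.

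A list of genes known to peak opposite Arntl in mouse tissues held 12 members, all measured and all with negative differences (median -0.41). At an unadjusted p under 0.05 there were 8 lower in the class contrast and 11 with a negative slope, beside 2.57% and 3.18% of all probe sets. Of these slopes 4 passed after adjustment, those of Dbp, Tef, Nr1d2 and Hlf already named. The counts of the class contrast were 12 negative and 5 lower without control TAC replicate 2, 12 and 4 without the 6 arrays with Myl7 above 6, and 12 and 10 without the 3 arrays with Atf3 above 8. Over all probe sets in those fits, 2.68%, 1.59% and 2.04% were lower at that p. Of the 3 measured genes known to peak near Arntl, 2 had positive differences, namely Clock and Nfil3, and Cry1 had a negative one. All of the 12 members but Usp2 and Wee1 belong to the 4 core lists, so most were already counted above.

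A relation that does not use Arntl was computed for Dbp. Its deviations were set against those of 12 other clock genes over all 16 hearts, with 100000 permutations within design groups and adjustment over the 12 pairs. Nr1d2 had r = 0.90 (rho 0.81), Hlf 0.88 (0.83), Ciart 0.86 (0.81), Tef 0.85 (0.78) and Bhlhe41 0.81 (0.73), each with a permutation adjusted p of 0.00394. Per3 had r = 0.80 (rho 0.78, permutation adjusted p 0.0104). Cry1 had r = 0.67 (rho 0.55, permutation adjusted p 0.0238 for r and 0.103 for rho). Nr1d1 (0.42), Clock (-0.62), Per2 (0.61), Per1 (0.48) and Nfil3 (-0.35) did not pass, with permutation adjusted p between 0.0592 and 0.273. Control TAC replicate 2 and cKO sham replicate 2 lay farthest from the median of Dbp. Without both, r was 0.77 for Nr1d2, 0.78 for Hlf, 0.74 for Ciart, 0.77 for Tef, 0.77 for Bhlhe41, 0.71 for Per3 and 0.41 for Cry1. The relation of Cry1 rested on those hearts (unadjusted permutation p 0.136 without them). For Per3 the unadjusted permutation p was then 0.0338, which did not pass after adjustment over the 12 pairs. Nr1d1, which had not passed with all hearts, then had r = 0.45 (unadjusted permutation p 0.0119) and did pass. The hearts share array normalization, and no batch is recorded within which the values could be recomputed.

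The high against low contrast was then taken within each genotype, in the same limma fit. Within cKO hearts (2 high-Arntl, 3 low-Arntl) it gave 0 calls (0% higher, 0% lower), with 232 higher (1.09%) and 310 lower (1.45%) at an unadjusted p under 0.05. Within control hearts (4 and 2) it gave 0 calls (0% and 0%), with 952 (4.46%) and 715 (3.35%). Of the 18 clock genes, 13 were negative in cKO hearts with a median of -0.18 and 14 in control hearts with a median of -0.49, beside 50.7% and 49.0% of all probe sets. At an unadjusted p under 0.05 there were 4 in cKO hearts, namely Arntl2, Per3, Nr1d2 and Hlf, and 9 in control hearts, namely Clock, Per3, Cry2, Ciart, Bhlhe41, Nr1d2, Dbp, Tef and Hlf. Per3, Nr1d2 and Hlf stood in both counts. Hlf had -0.39 ± 0.13 in cKO and -0.46 ± 0.12 in control hearts, a near match, and Dbp had -0.53 ± 0.27 and -1.18 ± 0.25. Since the Arntl gap itself was 0.74 in cKO and 1.30 in control hearts, the sizes in the 2 genotypes rest on unequal gaps.

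The difference between genotypes was tested as an interaction and gave 0 calls (0% higher, 0% lower; limma, smallest adjusted p 1.00), with 780 (3.66%) at an unadjusted p under 0.05. Among the clock genes these were Cry2 and Arntl2, the latter at levels near the array medians. The difference between surgeries also gave 0 calls (0% higher, 0% lower; smallest adjusted p 0.999), with 624 (2.93%) at an unadjusted p under 0.05, of which Nr1d1 was the only clock gene. Its difference was 0.39 after TAC and -0.36 after sham. The median difference of the 18 clock genes was -0.42 after TAC and -0.17 after sham, with 14 and 15 of them negative. Tef had -0.55 after TAC and -0.36 after sham, and Dbp had -0.87 and -0.86.

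Clock-controlled output genes were described from 2 lists. Of 9 measured rhythmic genes of many organs, 7 had negative differences (median -0.21), with 3 lower and 1 higher at an unadjusted p under 0.05. Over all probe sets 2.57% were lower and 2.56% higher at that p. Wee1, a kinase that holds cells before mitosis, had -0.39 ± 0.13, and Usp2, a deubiquitinase, had -0.39 ± 0.15. Usp2 deviations in low-Arntl hearts were 0.095, 0.24, 0.028, 0.52 and 0.31, all above 0, and in high-Arntl hearts they lay between -0.34 and 0.10 with a median of -0.14, so the classes overlapped. Klf10, a zinc-finger factor, had the opposite sign, 0.33 ± 0.15, and came to 0.15 without cKO TAC replicate 4. Of 21 measured rhythmic genes of heart metabolism and channels, 17 had negative differences, but the median was only -0.074. At an unadjusted p under 0.05 only 1 was lower, a count near the 2.57% share of all probe sets. That one was Tcap, the titin cap of the sarcomeric Z-disc, at -0.37 ± 0.12. Within genotypes Tcap had -0.037 ± 0.13 in cKO and -0.65 ± 0.13 in control hearts. Hk2, a hexokinase, and Dgat2, which makes triglyceride, had -0.25 ± 0.16 and -0.17 ± 0.11. Of 15 kinases, ligases and cofactors of the clock, 8 were positive and 7 negative with a median of 0.013, and Btrc, a ubiquitin ligase subunit that marks Period proteins for decay, had -0.14 ± 0.053 with no overlap of the classes.

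**Figure D4:**
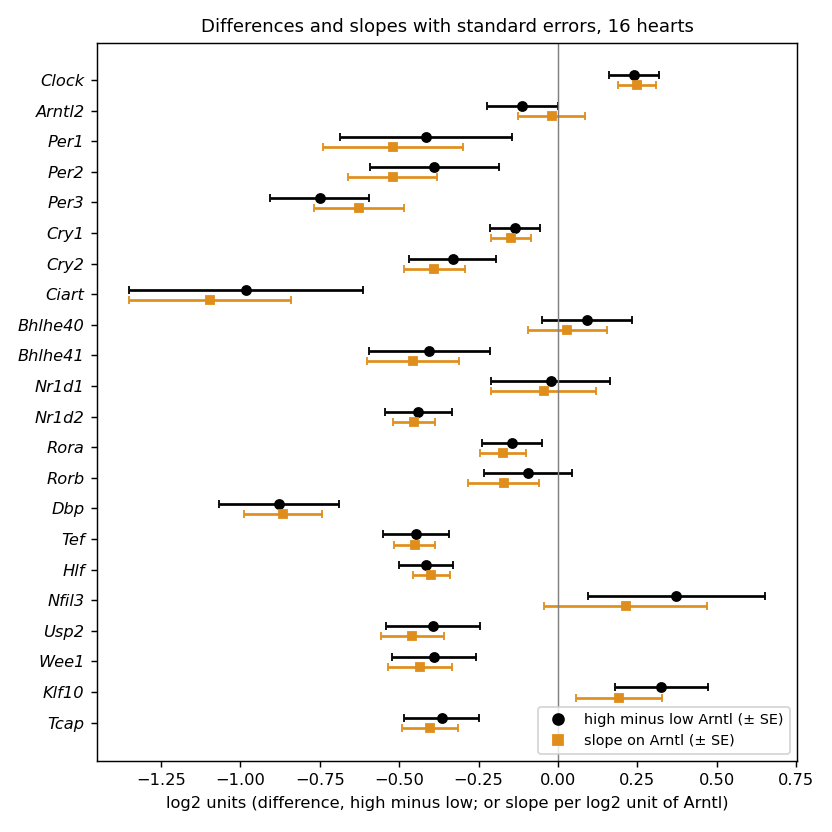
Log2 difference of high-Arntl minus low-Arntl hearts and slope on the Arntl deviation, each with its standard error, for the 18 clock genes and 4 output genes. Error bars are standard errors of the limma fits, and Dbp, Tef, Nr1d2 and Hlf are the 4 genes whose slope passed.

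Outside the clock, the genes of smallest p in the class contrast are named by rule, and none passed after adjustment. Higher in level in high-Arntl hearts were Uba1y (0.28 ± 0.061), a ubiquitin-activating enzyme on the Y chromosome, Spsb3 (0.40 ± 0.090), Mir692-1 (0.56 ± 0.13), Fam220a (0.37 ± 0.089), Sox18 (0.40 ± 0.099), Tspan18 (0.47 ± 0.12), Edn1 (0.62 ± 0.16), Nudt5 (0.30 ± 0.080), Dhx32 (0.27 ± 0.072) and Trp53i11 (0.48 ± 0.13). Uba1y read 4.55 to 5.18 (log2), near the array medians of 4.85 to 4.98. Sox18 is a transcription factor of endothelial cells and Edn1 encodes endothelin-1, the vasoconstrictor peptide they release. Sox18 deviations lay between 0.10 and 0.34 in high-Arntl hearts with a median of 0.17, against -0.20, -0.098, -0.23, -0.070 and -0.32 in low-Arntl hearts. No low-Arntl heart reached the high-Arntl range. Edn1 had -0.092 to 0.78 with a median of 0.24 in high-Arntl hearts, against -0.35, -0.26, -0.0025, -0.25 and -0.72 in low-Arntl hearts, with 1 high-Arntl heart among them, control TAC replicate 4.

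On the lower side, 5 of the 10 genes of smallest p were the clock genes Hlf, Per3, Dbp, Tef and Nr1d2. The other 5 were Mir143 (-0.48 ± 0.11), Cfap52 (-0.36 ± 0.085), Fam214a (-0.46 ± 0.11), and the keratin genes Krt7 (-0.31 ± 0.073) and Krt33a (-0.40 ± 0.098). Of these, Mir143 read 4.17 to 5.4, Cfap52 4.23 to 5, Krt7 4.69 to 5.19 and Krt33a 4.43 to 5.48 (log2). Those levels lay near the array medians of 4.85 to 4.98. All 5 genes were picked by this same contrast, and their classes did not overlap, beside 0.398% of all probe sets on the lower side. For Krt7 the highest high-Arntl deviation was -0.105 and the lowest low-Arntl deviation -0.095. Mir143 is the locus of a microRNA of smooth muscle, and its probe set does not tell the mature strand from the hairpin. Within genotypes Fam214a had -0.14 ± 0.11 in cKO and -0.75 ± 0.11 in control hearts. In the fit on the Arntl deviation, the genes of smallest p with a positive slope were Trp53i11 (0.51 ± 0.082, adjusted p 0.0826 by limma), Slc41a3 (0.56 ± 0.11), Tmem171 (0.56 ± 0.11), Fam220a (0.34 ± 0.069) and Hey1 (0.46 ± 0.098), a Notch target of endothelium. Slc41a3, Tmem171 and Hey1 were chosen after their values were seen. Slc41a3, of a magnesium transporter family, did not overlap between the classes, with 0.12 to 0.31 in high-Arntl hearts against -0.21, 0.015, -0.055, -0.94 and -0.23 in low-Arntl hearts.

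Lists outside the clock were read beside 50.2% positive differences over all probe sets tested. Heat shock proteins were positive in 9 of 10 measured (median 0.40), and 3 listed members were not tested. At an unadjusted p under 0.05, 2 were higher, beside 2.56% of all probe sets. Dnaja1, a co-chaperone, had 0.59 ± 0.24, and Hspa8, the constitutive Hsc70 chaperone, had 0.19 ± 0.086. Immediate early genes were positive in 15 of 18 (median 0.14). Atf3 itself had 1.20 ± 0.64, with deviations in high-Arntl hearts between -0.76 and 2.40 with a median of 0.30, against -0.13, -0.19, -1.17, -0.22 and -1.66 in low-Arntl hearts. Without the 3 arrays with Atf3 above 8, the heat shock list was positive in 8 of 10 with a median of 0.052 and the immediate early list in 8 of 18 with a median of -0.0021, while the 18 clock genes had the median of -0.41 given above. Glucocorticoid-responsive genes were positive in 14 of 17 (median 0.062) in the class contrast and in 8 of 17 (median -0.037) by their slopes. The class median was 0.18 without control TAC replicate 2 and -0.084 without the 3 arrays with Atf3 above 8, where 6 of 17 were positive. Among the members were Sgk1, a kinase, at 0.44 ± 0.25 (0.26 without control sham replicate 2) and Mertk, a phagocyte receptor, at 0.27 ± 0.13. The cold-inducible RNA-binding proteins Cirbp and Rbm3 had -0.20 ± 0.12 and -0.091 ± 0.12.

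Markers of other cell types were read for whole lists. Macrophage markers were positive in 9 of 9 (median 0.25), and the mean deviation of the list lay between -0.12 and 0.43 in high-Arntl hearts and between -0.35 and 0.019 in low-Arntl hearts. By slopes, 9 of 9 were again positive (median 0.24), with 1 higher at an unadjusted p under 0.05, beside 3.50% of all probe sets. Without control TAC replicate 2 the slopes had a median of 0.46 and 7 were higher, beside 3.70% of all probe sets in that fit, and without the 6 arrays with Myl7 above 6 the median was 0.55 and 7 were higher, beside 3.50%. Cd163, a scavenger receptor of resident macrophages, had 0.25 ± 0.11, and Csf1r, their growth factor receptor, had 0.25 ± 0.14. Endothelial markers were positive in 8 of 9 (median 0.16), with list means between -0.10 and 0.18 in high-Arntl and between -0.11 and 0.073 in low-Arntl hearts. Cdh5, the endothelial cadherin, had 0.16 ± 0.062, and Kdr, a VEGF receptor, had 0.20 ± 0.086. Fibroblast markers were positive in 8 of 8 (median 0.14), with list means between -0.24 and 0.36 in high-Arntl and between -0.47 and 0.36 in low-Arntl hearts, and without the 3 arrays with Atf3 above 8 they were positive in 5 of 8 (median 0.049). Rgs5, a pericyte gene, had 0.16 ± 0.049, while its list was positive in 4 of 7. Ventricular cardiomyocyte markers were positive in 2 of 8 with a median of -0.034, and Myh6, the main myosin heavy chain of the adult mouse heart, had a mean log2 value of 13.22. Atrial markers were positive in 2 of 4 (median 0.057), in 4 of 4 without control TAC replicate 2 (median 0.40) and in 1 of 4 without the 3 arrays with Atf3 above 8 (median -0.30), with list means between -0.69 and 1.69 in high-Arntl and between -1.08 and 1.57 in low-Arntl hearts. The part of these lists in the clock differences was not tested. Without the 3 arrays with Atf3 above 8 the macrophage list was positive in 9 of 9 (median 0.25) and the endothelial list in 9 of 9 (median 0.19).

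Pressure load genes were positive in 4 of 8 (median 0.052), and their members differed in sign: Nppb, a natriuretic peptide gene, had 0.53 ± 0.35 and Myh7, the fetal myosin heavy chain of the mouse ventricle, had -0.56 ± 0.47. Without control TAC replicate 2 the list was positive in 6 of 8 (median 0.19). Nppb and Myh7 were chosen after their values were seen. Unfolded protein response genes were positive in 9 of 12 (median 0.045), and in 3 of 12 without the 3 arrays with Atf3 above 8 (median -0.10). Skeletal muscle markers were positive in 2 of 4 (median 0.0076), adipocyte markers in 1 of 4 (median -0.012), lymphocyte markers in 0 of 2 (median -0.10), red blood cell markers in 1 of 2 (median 0.27) and the neutrophil list in its single measured member (0.037).

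**Figure D5:**
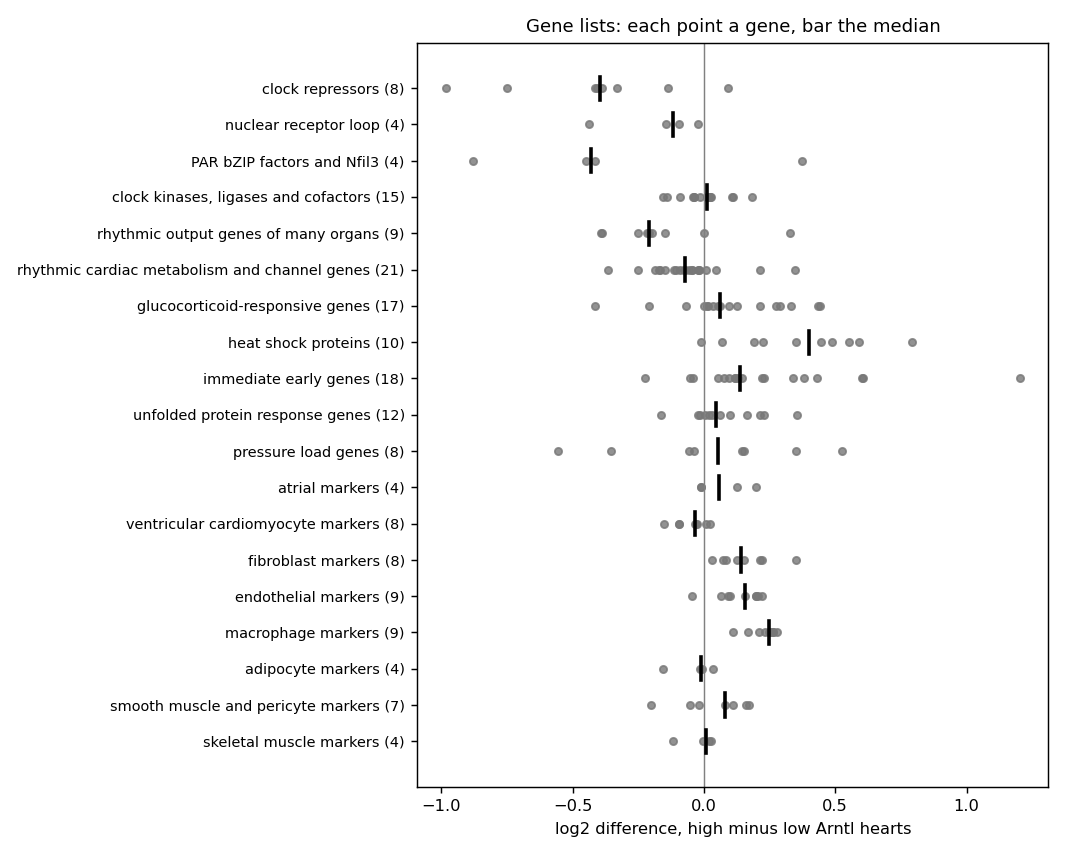
Median log2 difference of high-Arntl minus low-Arntl hearts as a bar for each gene list with at least 4 measured members, which are the points. The list of genes known to peak opposite Arntl is not drawn. Clock repressors and PAR bZIP factors lie mostly below 0, and the heat shock and macrophage lists mostly above it.

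The class was also entered as a term in the comparisons of the study's own groups. TAC against sham, averaged over genotype, gave 0 calls with the class in the fit and 0 without it (limma, 2424 and 2569 at an unadjusted p under 0.05). cKO against control, averaged over surgery, gave 1 call with the class (0.00469% of probe sets tested), 4 without it (0.0188%) and 7 with the Arntl deviation in place of the class (0.0328%). The 1 call was Myl2, the regulatory light chain of ventricular myosin, which averaged 12.81 in cKO and 13.23 in control hearts (log2) and fell in cKO hearts by 0.42 ± 0.042 (SE, limma adjusted p 0.00295). It was among the 4 called without the class, with Vps28 (-0.31 ± 0.047), C2cd5 (-0.50 ± 0.070) and a probe set without a single gene symbol (0.67 ± 0.10). These names were chosen after their values were seen.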

How the data were processed

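RNA from 16 mouse hearts, 4 per design group, was hybridised to 1 Affymetrix Mouse Gene 1.0 ST array each. The authors deposited log2 expression values for 35556 probe sets; the submitters' processing notes name MAS5 without a version, and how arrays were scaled is not stated there. The log2 scale was read from the values (2.34 to 14.35). Array medians lay between 4.85 and 4.98, so a shift shared by all genes would not be seen. The number of arrays limits the precision.

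Probe sets were named from the platform annotation: 21789 had 1 gene symbol, 1621 several and 12146 none; 21698 matched RefSeq genes (GRCm38.p6). Probe sets with a mean above the 40th percentile (4.37) were tested, 21332 in all, without Arntl. Of several probe sets per gene, that of highest mean was used. The main test was limma 3.58.1 in R 4.3.3, with terms for design group and Arntl class (high, between, low), a mean-variance trend, 10 residual degrees of freedom, two-sided tests and Benjamini-Hochberg adjustment at 0.05, checked on simulated data. Named were the measured clock genes, the 10 genes of smallest p in each direction, since none passed, up to 3 members of smallest p of each other list, and Zbtb17, Myl7 and Atf3. The fit on the Arntl deviation (11 residual degrees of freedom) was an alternative from the start, and its own alternatives and the list counts without arrays that stood apart were added after seeing the data.

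The classes, clock genes and the 26 lists were chosen with earlier results of these data known. Replicate numbers were not treated as pairs, since the labels give no shared litter or day. Deviations of same-numbered hearts correlated between -0.20 and 0.19 over probe sets. Hearts of different numbers were not set beside them, so these values cannot show whether the numbers pair the mice. With a replicate block in the limma fit, the smallest adjusted p was 0.457 for the classes and 0.266 for the slope. Motifs were searched in RefSeq promoter windows.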

Additional observations from a re-analysis of the deposited data

Results flagged for a closer look

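In 7 of 110 sets of 4 to 6 values, 1 heart lay farther from the rest than Dixon's criterion allows, and chance gives about 1 in 20. Among low-Arntl hearts, Per2 in control TAC replicate 2 had a deviation of 0.8775, with the other 4 between -0.14 and 0.14, and Spsb3 in cKO sham replicate 2 had -0.01, with the others between -0.2875 and -0.2775. Among high-Arntl hearts, Bhlhe40 in control sham replicate 4 had 0.5325, with the others between -0.1775 and 0.02. Control TAC replicate 1 had -0.405 for Hk2 and -0.305 for Dgat2, with the other high-Arntl hearts between -0.0775 and 0.065 and between -0.055 and 0.0525. Mertk in cKO sham replicate 4 had -0.2175, with the others between 0.06 and 0.2125. Before group means were removed, Arntl in control sham replicate 2 was 5.29, with the other control sham hearts between 6.01 and 6.14; that heart is in the low-Arntl class. The cause of these values was not tested.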

How the results depend on the processing

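With the Arntl deviation in place of the classes, 4 probe sets were called lower. Those calls did not hold in many other settings. After median centring (smallest adjusted p 0.0640 by limma), without a filter (0.0561), without the arrays with Myl7 above 6, without those with Atf3 above 8 and with the replicate block, 0 were called lower. Leaving out 1 heart at a time gave 0 to 4 (0 in 13 of 16 such fits). The smallest adjusted p stayed under 0.05 with quantile normalization (0.0188), the filter at the 60th percentile (0.0247) and no mean-variance trend (0.0396). It was also under 0.05 with array weights (0.0180) and probe sets averaged per gene (0.0146). Without group terms it was 0.000388, but that fit used the Arntl log2 level, so differences between group means entered it. In each of these last settings positive slopes were among the calls. Probe sets with a positive slope numbered 5 without group terms, 1 with array weights, 1 with probe sets averaged per gene, and 0 to 2 leaving out 1 heart. Without control TAC replicate 2 the contrast within control hearts called 2 higher (range 0 to 2), and without cKO sham replicate 2 the difference between surgeries called 1 higher (range 0 to 1). cKO against control gave 4 calls without the class. Nr1d1 turned to 0.023 without group terms, 0.0058 after median centring, 0.0037 with array weights and 0.40 with the replicate block, and ranged between -0.26 and 0.11 leaving out 1 heart. Rorb turned to 0.022 without the arrays with Myl7 above 6 and 0.14 with the block (-0.21 to 0.0099 leaving out 1 heart). Bhlhe40 turned to -0.044 without the arrays with Atf3 above 8 (-0.018 to 0.16 leaving out 1 heart). The other 15 clock genes kept their sign in all alternatives run. The causes were not tested.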
